A study of Schizosaccharomyces pombe with 8 samples.

Results

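The genes described here encode the 5 small nuclear RNAs (snRNAs) of the spliceosome in the fission yeast Schizosaccharomyces pombe: snu1, snu2, snu4, snu5 and snu6, for the U1, U2, U4, U5 and U6 snRNAs. They were taken by name from a list of genes associated with the RNase III endonuclease Pac1, and any member missing from that list was looked up in the reference annotation. Of the 5 genes, 4 were in the list, which holds 167 systematic gene names paired with 88 peaks of chromatin immunoprecipitation sequencing (ChIP-seq). The genes named snu3 and snu32 encode the U3 snoRNA, which is not a spliceosomal RNA, and served only for comparison.

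The peaks came from 2 Pac1-TAP immunoprecipitates and their 2 inputs, all from strain FBY2277, in which Pac1 carries a TAP tag at its own locus (Pac1-TAP-natMX6). This strain is of mating type h+ and also carries his3-D1, ura4-D18, leu1-32 and ade6-M216. Cells grew at 30 °C in Edinburgh minimal medium with adenine, uracil, histidine and leucine, and these samples received no other treatment. The list used here gives 1 value per peak for both replicates together, so the numbers below carry no replicate error or depth, and no untagged control was used here. Of the 8 libraries in the series, the 4 of RNA polymerase II (RNAPII) and their inputs have no values in the list and were not analysed here.

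The spliceosome removes introns from pre-mRNA. In it, U1 base pairs with the 5′ splice site, U2 with the branch point and U6 with the 5′ splice site after U1 has left, while U4 carries U6 into the complex as a base-paired duplex and U5 holds the exons. U1, U2, U4 and U5 are transcribed by RNAPII and U6 by RNA polymerase III, which stops at runs of T. RNase III enzymes cut double-stranded RNA, and their cleavage of a hairpin past the end of an snRNA precursor is a known step of snRNA 3′ end formation in yeasts.

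The RNAs themselves are shown first, because peak positions below are counted from their ends. The lines give the 5 genes as RefSeq annotates them on ASM294v3, 5′ to 3′ as DNA. Capitals mark the stretch known for pairing with a splice site, a branch point, another snRNA or an exon. These were ACTTAC at base 1 of U1, GTAGTA at base 34 of U2, TTGTGCA at base 5 of U4, GCCTTTTAC at base 46 of U5 and ACAGAGA at base 35 of U6.
snu1 RNA gene: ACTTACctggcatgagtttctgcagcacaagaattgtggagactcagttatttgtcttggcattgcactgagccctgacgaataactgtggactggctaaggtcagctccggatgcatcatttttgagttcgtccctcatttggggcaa
snu2 RNA gene: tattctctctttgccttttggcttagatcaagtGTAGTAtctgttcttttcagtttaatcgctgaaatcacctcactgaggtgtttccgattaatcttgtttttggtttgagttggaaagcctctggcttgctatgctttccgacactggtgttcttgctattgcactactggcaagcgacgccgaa
snu4 RNA gene: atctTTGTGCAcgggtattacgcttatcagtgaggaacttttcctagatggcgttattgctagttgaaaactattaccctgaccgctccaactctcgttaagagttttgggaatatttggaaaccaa
snu5 RNA gene: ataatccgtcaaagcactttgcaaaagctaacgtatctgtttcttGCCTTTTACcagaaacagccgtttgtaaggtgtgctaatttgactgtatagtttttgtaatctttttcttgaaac
snu6 RNA gene: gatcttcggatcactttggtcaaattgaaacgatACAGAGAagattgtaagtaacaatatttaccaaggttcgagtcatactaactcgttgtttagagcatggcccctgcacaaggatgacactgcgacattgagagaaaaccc
On that build snu1 lies at II:3020205-3020353 on the plus strand, snu2 at I:959370-959556 on the minus strand, snu4 at II:467489-467615 on the minus strand, snu5 at II:3236867-3236986 on the plus strand and snu6 at I:2562276-2562419 on the minus strand. The RNAs are 149, 187, 127, 120 and 94 nt long in the order of the lines. Each of the first 4 genes is 1 exon. The snu6 gene is 144 bp long because its 2 exons are split by an intron of 50 bp, which follows base 46 and is shown here with its 5′ splice site and branch point in capitals.
snu6 intron: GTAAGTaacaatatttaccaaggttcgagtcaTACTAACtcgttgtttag
The 6 bases GTAAGT at the start of this intron are the reverse complement of ACTTAC, the first 6 bases of U1. U2 shares its longest exact complement with the intron at its bases from 35 on, where TAGTAT matches ATACTA, and the latter overlaps the TACTAAC of the branch point. The longest exact complement between U4 and the spliced U6 was TTGTGCA with TGCACAA, 7 bases long.

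Peaks of Pac1-TAP were listed at the 4 snRNA genes of RNAPII and none at snu6. A reference gene overlapped a peak by at least 1 bp in 155 of 6872 cases (2.26%), against 4 of the 5 snRNA genes. The peaks lay at II:3020088-3020945 for snu1, I:958767-959670 for snu2, II:465386-467716 for snu4 and II:3236751-3237529 for snu5, in the coordinates of the list. All 4 had a listed p-value of 0, as did 34 of all 88 peaks (38.6%), so the list gives no order among them. The list paired no other gene with any of the 4 peaks, although 3 of them touched further genes of the reference. At snu5 the only such gene was SPNCRNA.6024, a long non-coding RNA gene left out of the 6872. The nearest peak to snu6 was 62898 bp away, over trx1 and SPAC7D4.08, and no value for the signal at snu6 itself was used.

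Of the 4 peaks, 3 were alike in size and 1 was not. The peak was 779 bp wide at snu5, 858 bp at snu1, 904 bp at snu2 and 2331 bp at snu4. Over all 88 peaks the median width was 1378.5 bp, with a range of 545 to 5433 bp. Counted from the narrowest, the peaks at snu5, snu1 and snu2 ranked 13, 20 and 24, and that at snu4 ranked 70. The widths other than that at snu4 spanned 125 bp.

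The peaks began close to the start of each RNA and ran far past its end. The 5′ edge lay 117 bp before the first base of U1, 114 bp before U2, 101 bp before U4 and 116 bp before U5, a spread of 16 bp over the 4 genes. Past the last base, the peak reached 592 bp at snu1, 603 bp at snu2, 2103 bp at snu4 and 543 bp at snu5. The reach on the 3′ side was 5.06, 5.29, 20.8 and 4.68 times that on the 5′ side. The RNA itself made up 17.4% of the peak at snu1, 20.7% at snu2, 5.45% at snu4 and 15.4% at snu5, while the part past the 3′ end made up 69.0%, 66.7%, 90.2% and 69.7%. With 1 combined value per peak, it cannot be said by how much these edges differ between the replicates, and the bounds give no summit.

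**Figure D1:**
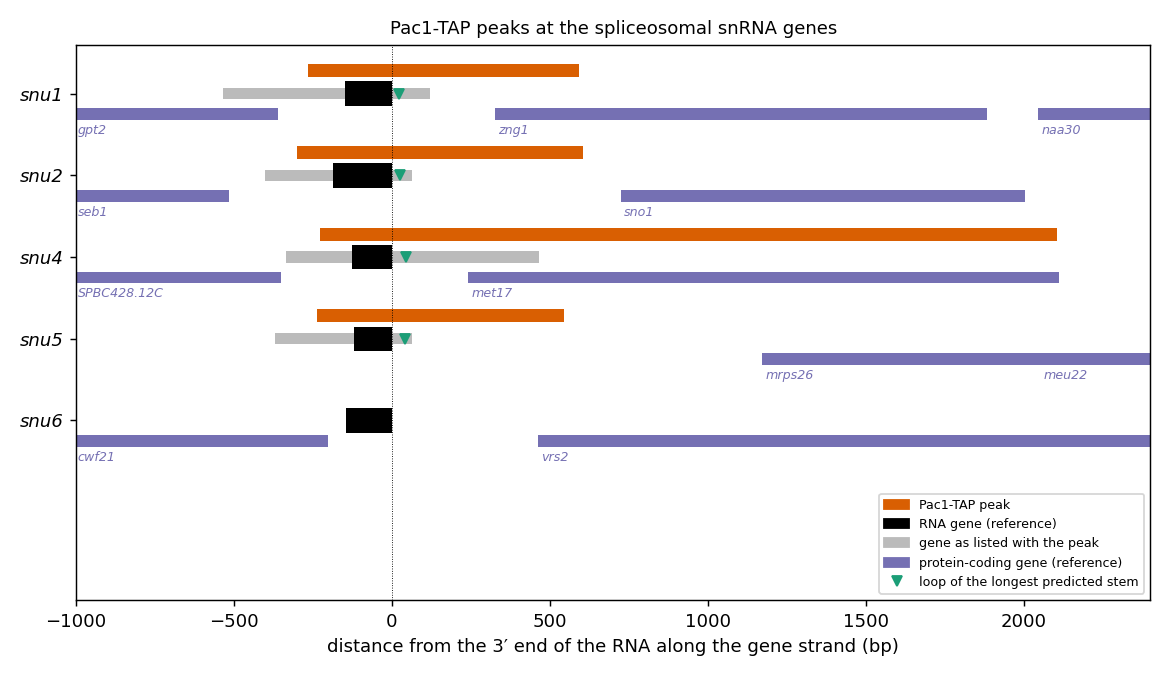
Each row is 1 snRNA gene drawn along its own strand, with the distance from the 3′ end of the RNA in bp on the horizontal axis. The orange bars are the Pac1-TAP peaks, black bars the RNA genes of the reference, grey bars the genes as listed, purple bars protein-coding genes and triangles the loop of the longest stem predicted within 100 nt. Peaks at snu1, snu2 and snu5 end 543 to 603 bp past the RNA, the peak at snu4 ends 2103 bp past it over met17, and snu6 has none.

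The picture on the 5′ side depended on which gene bounds were used. The list gives longer genes than the mature RNAs, 654 bp at snu1, 466 bp at snu2, 799 bp at snu4 and 435 bp at snu5. These listed genes start 386, 214, 208 and 250 bp before the RNA and end 119, 65, 464 and 65 bp after it. The 5′ edge of each peak therefore fell inside the listed gene, which gave 5′ overhangs of −269 bp at snu1, −100 bp at snu2, −107 bp at snu4 and −134 bp at snu5. The median 5′ overhang was −120.5 bp from the listed starts and 115 bp from the RNA starts. On the 3′ side the peaks reached 473, 538, 1639 and 478 bp beyond the listed ends in the same order, with a median of 508 bp. The peaks covered 58.9%, 78.5%, 86.6% and 69.2% of the listed genes, and the peak centre lay past the listed end at each of the 4, by 44.5, 86.5, 474 and 89 bp.

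The sequence between the 5′ edge of each peak and the first base of the RNA is shown because this is the stretch before the gene in which Pac1-TAP signal was called. Capitals mark TATA and GGGTTT on the strand of the gene. The bounds of the peaks were carried to ASM294v3 after the bounds of listed genes had been compared with it.
snu1 upstream: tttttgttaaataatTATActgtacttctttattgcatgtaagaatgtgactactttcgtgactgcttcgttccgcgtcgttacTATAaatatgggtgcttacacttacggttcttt
snu2 upstream: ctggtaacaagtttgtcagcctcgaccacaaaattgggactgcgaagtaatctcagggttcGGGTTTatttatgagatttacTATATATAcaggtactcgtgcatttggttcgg
snu4 upstream: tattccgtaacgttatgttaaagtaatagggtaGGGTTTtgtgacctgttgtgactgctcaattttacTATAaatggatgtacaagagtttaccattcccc
snu5 upstream: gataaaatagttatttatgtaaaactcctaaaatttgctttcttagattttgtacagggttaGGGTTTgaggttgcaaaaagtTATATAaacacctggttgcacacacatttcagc
A TATA element is known to position RNAPII at many promoters. TATA began 33 bp before the RNA at snu1, 28 bp at snu2, 33 bp at snu4 and 31 bp at snu5, taking the copy nearest to the gene. It also began 29 bp before snu6. A TATA, which reads the same on both strands, lay between 20 and 40 bp before 24.5% of 5356 snRNA, snoRNA, tRNA and protein-coding genes and before 21 of 66 snoRNA genes. GGGTTT began 53 bp before snu2, 68 bp before snu4 and 54 bp before snu5 and was not found before snu1 or snu6 in 120 bp. On the gene strand 2.30% of the 5356 windows of 120 bp held it, and 4.67% on either strand. Both motifs were chosen after the sequences had been read.

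The 4 peaks differed in what lay under their 3′ parts. At snu2, no reference gene other than snu2 touched the peak. The next gene on that side, the protein-coding gene sno1, began 121 bp past the peak edge. At snu5, the peak touched only SPNCRNA.6024, an antisense RNA that covers the whole of snu5, and the next protein-coding gene, mrps26, for a mitochondrial ribosomal protein, was 629 bp from the peak. At snu1, the peak ran 265 bp into zng1, which starts 327 bp past the RNA on the same strand, and 420 bp along the antisense RNA SPNCRNA.1573. At snu4, the convergent gene met17 on the opposite strand ends 241 bp past the RNA. Of this gene, which acts in the synthesis of sulphur amino acids, 99.7% was inside the peak, and it took up 79.9% of the peak width. Only 469 bp of the 2331 bp lay outside met17. ChIP-seq signal has no strand, so signal of snu4 and of met17 cannot be told apart there.

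Antisense RNAs of the reference covered the whole RNA at snu1 (SPNCRNA.5934), snu4 (SPNCRNA.4732) and snu5 (SPNCRNA.6024), and none did at snu2 or snu6. The part of these antisense RNAs in the peaks was not tested. On the 5′ side no protein-coding gene touched a peak. The nearest were gpt2 at 94 bp from the peak at snu1, seb1 at 214 bp from that at snu2, SPBC428.12C at 124 bp from that at snu4 and lcl3 at 997 bp from that at snu5.

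A further listed peak within 2 kb was found at snu2 and at no other member. It belonged to seb1, which encodes an RNA-binding factor of transcription termination and is transcribed away from snu2 with 328 bp between both genes. The peak at seb1 (I:959907-960774, listed p-value 1.46e-107) was 868 bp wide and was separated from the peak at snu2 by 236 bp. The other nearest peaks were far off, at 111129 bp from the peak at snu4, 155880 bp from that at snu5 and 210872 bp from that at snu1. Around snu6, the gene cwf21, for a spliceosome component, lies 57 bp upstream and vrs2 463 bp downstream, and neither was in the list.

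Compared with listed snoRNA genes, the most similar class, peaks at snRNA genes had 5′ edges in a narrower band, counted from the RNA bounds. At 15 snoRNA genes the 5′ reach ran from −13 bp (snR3) to 994 bp (snoU14), with a median of 136 bp, against 101 to 117 bp at the 4 snRNA genes. The 3′ reach ran from −10 bp (snR10) to 736 bp (snR88) with a median of 388 bp. It exceeded 500 bp at 2 of 15 snoRNA genes, snR88 and snu32, against 4 of 4 snRNA genes. Counted from the listed ends instead, it exceeded 500 bp at 2 of 15 snoRNA genes and at 2 of 4 snRNA genes. From the RNA bounds, the medians at snRNA genes were 115 bp on the 5′ side and 597.5 bp on the 3′ side. The snoRNA gene closest to them was snu32, with 52 bp on the 5′ side and 605 bp on the 3′ side, while its paralog snu3 had 172 and 352 bp. Counted from the listed starts, the 5′ reach ran from −269 to −100 bp at the 4 snRNA genes. At the 15 snoRNA genes it then ran from −269 to 994 bp. For 11 of the 15 snoRNA genes the list paired the peak with a further gene, as it did for no snRNA peak. Reach at those snoRNA genes may therefore include signal of the further gene. The same holds for the 3′ reach at 2 snRNA genes whose neighbours the list did not pair. The peak at snu1 ran 265 bp into zng1, and that at snu4 covered 99.7% of met17. These values describe 1 combined list and were not tested.

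**Figure D2:**
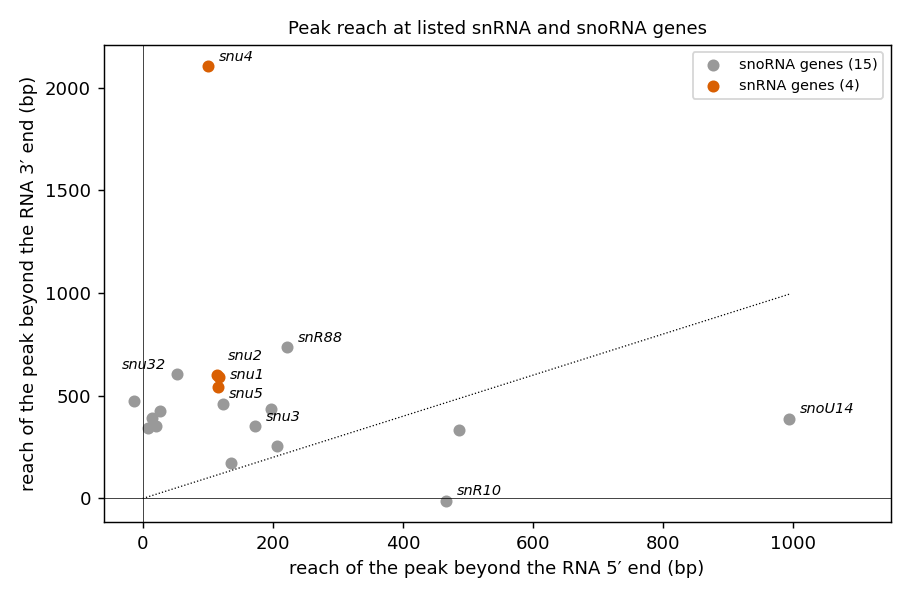
Each point is 1 listed gene, with the reach of its peak beyond the RNA 5′ end in bp on the horizontal axis and beyond the 3′ end on the vertical axis. Orange points are the 4 snRNA genes and grey points the 15 snoRNA genes, and the dotted line marks equal reach on both sides. snu1, snu2 and snu5 form a tight group at 114 to 117 bp and 543 to 603 bp, and snu4 stands apart at 2103 bp.

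The sequences past the RNA ends were examined next, since Pac1 cleaves RNA hairpins. The first 90 bases after each RNA are shown, with the arms of the longest stem predicted in 100 nt, unpaired bases within them included, in capitals. A stem here is unbranched, is counted outward from its hairpin loop and may hold bulges and internal loops of at most 5 nt a side. Its count ends at the first larger loop, and pairs beyond that loop are not counted.
snu1 downstream: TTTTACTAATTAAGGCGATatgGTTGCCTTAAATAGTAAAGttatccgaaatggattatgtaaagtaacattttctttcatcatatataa
snu2 downstream: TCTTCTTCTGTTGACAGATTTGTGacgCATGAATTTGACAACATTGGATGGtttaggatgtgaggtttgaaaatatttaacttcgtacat
snu4 downstream: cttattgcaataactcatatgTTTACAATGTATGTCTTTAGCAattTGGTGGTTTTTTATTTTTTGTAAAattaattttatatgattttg
snu5 downstream: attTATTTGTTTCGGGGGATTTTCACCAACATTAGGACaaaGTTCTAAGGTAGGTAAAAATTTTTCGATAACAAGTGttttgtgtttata
snu6 downstream: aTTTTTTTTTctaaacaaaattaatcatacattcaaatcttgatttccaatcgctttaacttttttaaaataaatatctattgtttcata
In the line of snu6, capitals mark a run of 9 T that begins after 1 base.

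Hairpins were predicted directly past 3 of the 4 RNAs. The stem had 18 base pairs over bases 1 to 41 at snu1, 20 pairs over bases 1 to 51 at snu2 and 32 pairs over bases 4 to 77 at snu5, each closed by a loop of 3 nt. A stem of at least 18 pairs that begins within 5 nt of the gene end was predicted for 6.87% of 5355 windows at snRNA, snoRNA, tRNA and protein-coding genes. Among 66 snoRNA genes, 4 had such a stem, and snu32 was 1 of them with 26 pairs from base 4. This rule was set after the stems had been seen. At snu4 the longest stem had 15 pairs over bases 22 to 70, and at snu6 it had 5 pairs. The predicted energy of the 100 nt was −22.8 kcal/mol at snu1, −20.5 at snu2, −10.5 at snu4, −26.5 at snu5 and −0.9 at snu6. Of the 5355 windows, 1.85%, 4.44%, 66.9%, 0.672% and 99.7% had an energy at or below these values, in the same order.

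In windows of 150 nt, a stem of at least 20 pairs was predicted for 3 of the 4 snRNA genes with a peak, against 20.0% of the 5355 windows. Among snoRNA genes the count was 18 of 66 (27.3%), and 6 of the 16 with a listed peak (37.5%). The longest stems at those 16 had 32 pairs, at sno20 and snR30, and began at bases 2 and 5, within 5 nt of the gene end. At the snRNA genes the longest stem in 150 nt had 26 pairs at snu1, 27 at snu2, 32 at snu5 and 8 at snu4, and 6 at snu6. At snu1 and snu2 it was another stem than that next to the RNA, at bases 65 to 149 and 51 to 135. The energies were −31.7 kcal/mol at snu1, −26.3 at snu2, −22.0 at snu4, −36.3 at snu5 and −2.9 at snu6, with a median of −21.3 over all windows. Only snu5 and snu1 stood near the low end, with 1.44% and 5.64% of windows at or below their values, while 20.0% were so for snu2 and 44.9% for snu4. The window of snu6 was at the other end, with 5352 of the 5355 windows at or below it. The G+C content of these windows was 23.3%, 31.3%, 24.0%, 30.7% and 22.7% in the order snu1, snu2, snu4, snu5 and snu6. Among windows within 2 percentage points of the same G+C content, 0.421% were at or below snu1, 15.3% at or below snu2, 17.9% at or below snu4, 0.303% at or below snu5 and 99.8% at or below snu6.

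**Figure D3:**
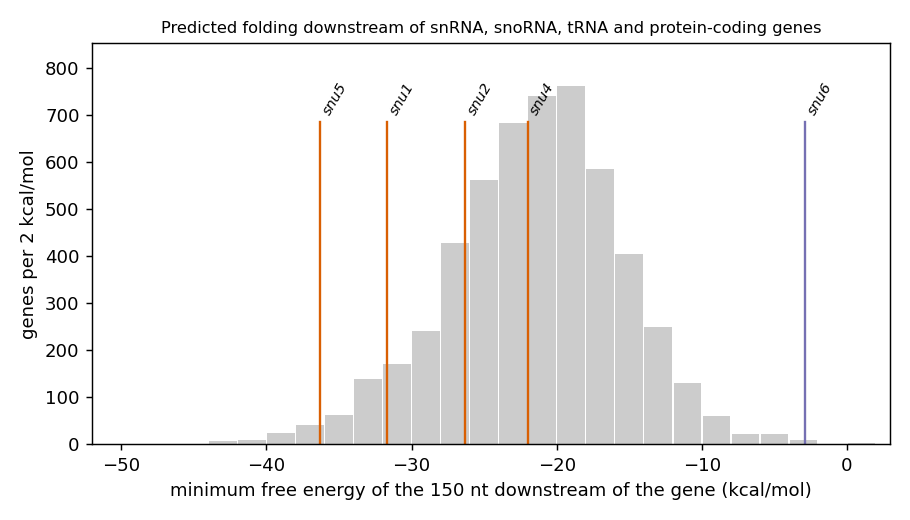
Grey bars count genes by the predicted minimum free energy of the 150 nt past their annotated ends, in bins of 2 kcal/mol, for 5355 snRNA, snoRNA, tRNA and protein-coding genes. Vertical lines mark the 4 snRNA genes with a peak (orange) and snu6 (purple). snu5 at −36.3 and snu1 at −31.7 kcal/mol lie in the low tail, snu2 and snu4 in the body and snu6 at −2.9 in the high tail.

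The longest stem predicted at snu4 varied with the window and with the loops allowed. In a window from 20 nt before to 80 nt after the RNA end, with loops of up to 7 nt a side, the longest stem at snu4 had 27 pairs, began 20 nt before the end of the RNA, at the edge of the window, and ended 68 bases past it. It is shown because the last 20 bases of the RNA form part of its 5′ arm.
snu4 across the RNA end: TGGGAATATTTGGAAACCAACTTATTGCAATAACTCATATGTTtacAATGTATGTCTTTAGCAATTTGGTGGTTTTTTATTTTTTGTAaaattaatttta
In this window with loops of at most 5 nt a side, the longest stem at snu4 had 8 pairs, counted outward from the hairpin loop. The count ended at an internal loop of 7 nt within the longer stem. The pairs outside that internal loop were still predicted but were not counted. In the same window snu2 had 33 pairs and took in the last 14 bases of the RNA, snu1 had 20 pairs with the last 2 bases, and snu5 kept its 32 pairs past the RNA. At least 20 pairs were thus predicted for 4 of 4 genes with loops of up to 7 nt, against 21.8% of all windows, and for snu6 the longest stem had 9 pairs. The energy of this window was −34.1 kcal/mol at snu1, −25.4 at snu2, −17.9 at snu4, −26.5 at snu5 and −8.4 at snu6, and 0.0747%, 0.654%, 9.23%, 0.504% and 81.2% of the windows were at or below these values. This window and this loop limit were chosen after the values had been seen.

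Among windows of 60 nt centred past the RNA and within the peak, those nearest the RNA had the lowest energy at 3 genes. For window centres from 0 to 60 nt past the RNA, the lowest value was −25.4 kcal/mol at snu1 (centre at 10 nt), −18.1 at snu2 (25 nt), −20.5 at snu5 (40 nt), −12.4 at snu4 (25 nt) and −5.4 at snu6 (0 nt). Farther along the peak, no window at snu1, snu2 or snu5 reached its own value, and the lowest there were −14.6, −16.3 and −12.7 kcal/mol. At snu4, 11 of 128 windows farther along, up to 700 nt, were at or below its value, the lowest at −16.5 kcal/mol and 590 nt, inside met17. The peak centres did not coincide with the loops. They lay 142.5 bp past the loop at snu1, 125.5 bp at snu2, 114 bp at snu5 and 893 bp at snu4, with loops centred 21, 26, 40 and 45 nt past the RNA.

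**Figure D4:**
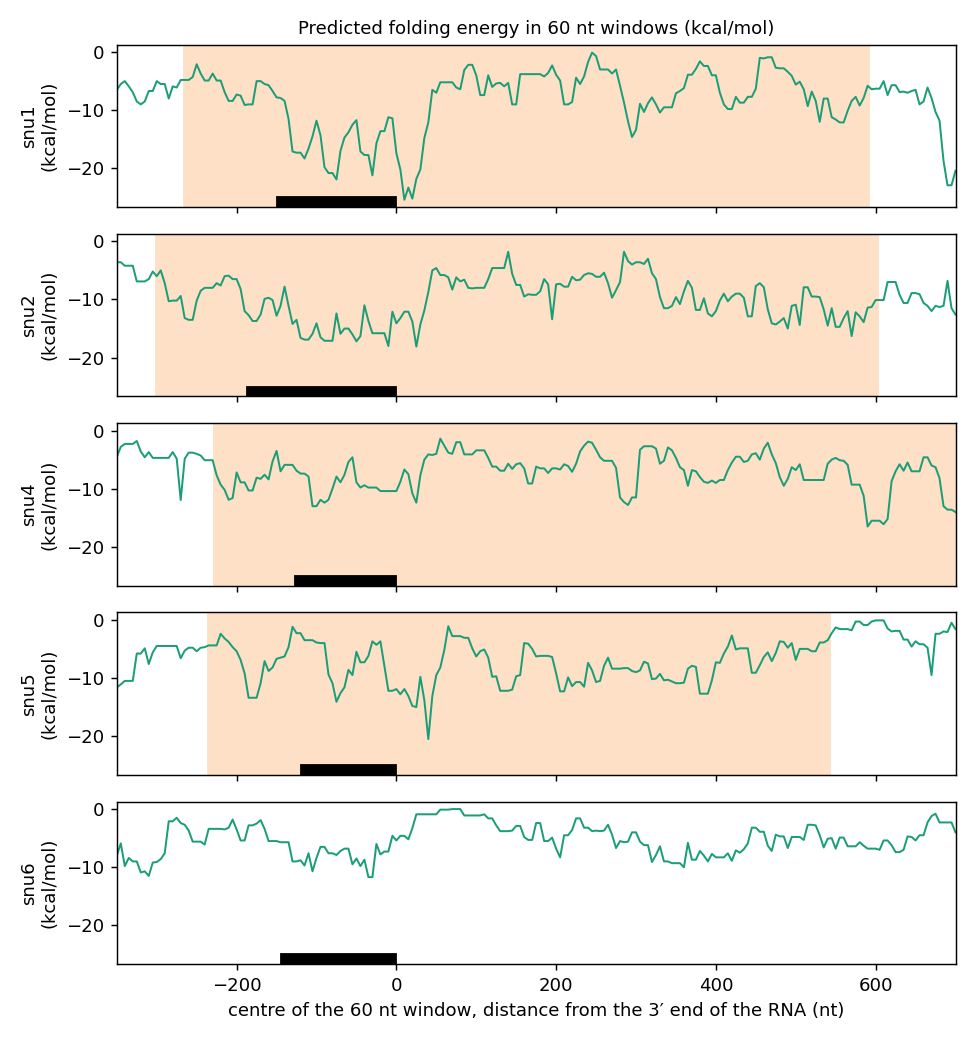
Each panel is 1 snRNA gene, with the predicted folding energy in kcal/mol of 60 nt windows on the vertical axis and the distance of the window centre from the 3′ end of the RNA in nt on the horizontal axis. Black bars mark the RNA and shaded areas the Pac1-TAP peak, which runs beyond the panel at snu4. Dips to −25.4, −18.1 and −20.5 kcal/mol are centred just past the RNA end at snu1, snu2 and snu5. At snu2 windows over the RNA itself are nearly as low. At snu1 they reach −21.9 kcal/mol, and a window at 690 nt, past the peak, reaches −22.9.

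The hexamer AATAAA, known as a signal for mRNA 3′ end cleavage and polyadenylation, was looked up in the 500 bases past each RNA. On the strand of the gene it began 164 bases past U1 and 294 bases past U2, within the peak in both cases, and 69 bases past U6. It was absent from the 500 bases past U4 and U5. On that strand 53.9% of the 5356 windows held it, and 77.9% on either strand. A run of 5 T within 30 bases of the gene end, on the gene strand, was found at snu6 alone among the 5 genes and at 17.3% of the 5356 genes. On either strand the share was 27.6%.

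Genes for proteins that work with these RNAs were looked up as well. Sm and LSm proteins form rings on RNAs, snRNAs among them. Of 15 genes for these proteins and of 49 for other spliceosome proteins, 0 were in the list and 0 overlapped a peak. Over all 5113 protein-coding genes the share that overlapped a peak was 1.76%, so counts of 0 in lists of this size were near that share. Of 24 genes for RNA 3′ end processing and decay factors, 1 was in the list, namely seb1 beside snu2. Of 10 further stable RNA genes, 8 overlapped a peak, against 2.26% of all reference genes counted above, but these 10 were chosen with earlier results of the list known. The 8 included snu3, snu32, snR30, snR10, snoU14 and snR88. The others of the 8 were rrk1, the RNA of RNase P, and mrp1, the RNA of RNase MRP. Of all 66 snoRNA genes of the reference 16 had a listed peak, while the list itself classes 15 genes as snoRNA genes. The genes ter1 for telomerase RNA and srp7 for the RNA of the signal recognition particle were not in the list.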

How the data were processed

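The members and gene lists were chosen with earlier results of these data known. Per the methods of the study, the authors used Trimmomatic for trimming, HISAT2 for mapping to ASM294v2.26, MACS2 for peak calling per replicate with the input as control and duplicates kept, and MSPC to merge both replicates. For every peak the deposited list holds a p-value merged over replicates, its bounds and the paired genes, and 5 of its 12 columns were read as numbers, and depth per sample is unknown from this list. Samples were grouped by their titles.

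Mature RNA bounds and sequence came from RefSeq on ASM294v3, a later release. Of 153 listed genes found by name on the same chromosome, 144 had an identical start or end there, on both sides of each member. Peak starts were read as 1-based, which could move an edge by 1 bp. Long non-coding RNA genes numbered from 2003 upwards, above any in the list, were left out of the 6872 reference genes. Folding used RNAfold (ViennaRNA 2.7.2) at 37 °C and was tested on simulated hairpins, with Python 3.11.15, numpy 2.4.6 and pandas 2.3.3. Names that stand for the same gene were counted once in the gene lists. No test was run, as 1 combined list holds no replicates.

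Genes named were the members, genes within 2 kb of their peaks, extremes among snoRNA genes and listed genes of the fixed lists. The names ter1, srp7, trx1 and SPAC7D4.08 were chosen after their values were seen.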

Additional observations from a re-analysis of the deposited data

How the results depend on the processing

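Of 29 alternatives, 23 left the value within 1.5 times and with the same sign, and 5 of the 29 were chosen after seeing the data. Counting only genes that hold the peak centre gave 0 snRNA genes with a peak, because the centres lie past the listed ends. The median 5′ overhang turned from −120.5 to 115 bp with the RNA bounds of the reference, since the listed genes start before the RNA. The median folding energy past the 4 RNAs was −29.0 kcal/mol in 150 nt, −12.1 in 60 nt, by fewer bases, and −19.0 on the opposite strand, where 1 gene had a stem of 20 pairs. The count of snRNA genes with a stem of 20 pairs was 3 in 150 nt and 2 in 100 nt, at the limit of 1.5 times. In a window from the listed gene end, the longest stem had 16 pairs at snu1, 33 at snu2, 19 at snu4 and 11 at snu5. That stem count was not among the 29 alternatives. Counting all reference genes within 2 kb gave 27 in place of 1. No paired analysis was possible because each peak in the list used here has 1 value for both replicates, and leaving out a replicate was not run for the same reason. Depth per library is not given in the list.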
